A study of Mus musculus with 21 samples.

Results

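Poly(A) RNA of mouse OT-I CD8 T cells cultured with B16-F10 melanoma cells was compared between cultures that received antigen peptide repeatedly (chronic) and cultures that did not receive it again (acute). The comparison covers the 6 OT-I libraries of a series of 21, with n = 3 per group, and all genes listed at 1 RPKM or more in at least 3 of them. RPKM are reads per kilobase of gene, scaled to the size of the library. This rule took 11806 of the 13202 genes in the deposited table. The 268 genes that passed through exactly 3 libraries had a median of 1.17 RPKM, and the 116 that missed it with 2 libraries had 0.924 RPKM. OT-I T cells carry a transgenic T cell receptor (TCR) for an ovalbumin peptide. Both OT-I groups were activated with the peptide SIINFEKL for 48 h, and from then on were kept with 10 ng/mL IL-2 and with B16-F10 cells that had been given 1 ng/mL IFN-g to raise MHC class I. They differed in whether SIINFEKL was added to the co-culture (chronic, every 48 h) or left out (acute), and both were harvested for RNA on day 8. B16-F10 is a pigmented mouse melanoma line that does not itself carry ovalbumin, and it is the sole tumour line used. The labels do not say how the OT-I cells were isolated, or whether the melanoma cells were removed before RNA was taken.

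The 4 tumour-free groups of the same series, each with n = 3, served to separate the genes by likely source. By the labels these were polyclonal CD8 T cells and vehicle-treated CD8 T cells of C57BL/6 mice. Both were activated with anti-CD3 and anti-CD28 for 48 h and, like the OT-I cells, given 10 ng/mL IL-2. Each was harvested on day 8 without (acute) or with (chronic) further plate-bound anti-CD3 every 48 h. A CD8 T cell that meets its peptide on a tumour cell releases perforin and granzymes, which kill the target, and secretes interferon-γ. Interferon-γ acts through its receptor on any nucleated cell nearby and induces guanylate-binding proteins, antigen presentation genes and the chemokines CXCL9, CXCL10 and CXCL11, which recruit further T cells. T cells that are restimulated for long lose the memory factor TCF1 and gain inhibitory receptors such as PD-1 and TIM-3. In bulk RNA of a mixed culture, fewer cells of a type and less RNA per cell cannot be told apart.

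Reads in genes numbered 13121180 to 25218890 per OT-I library. OT-I acute library 3 was the shallowest and stood apart from the other 5: it had 150 genes under 0.5 RPKM, against 1027 to 1156 in each of the others. The 814 genes that were under 0.5 RPKM in each of the other 5 libraries had a median of 0.814 RPKM in it. Levels of 1 to 2 RPKM in that library therefore say little, and a call that ends, or a list count that moves by over 1.5 times, without it is given both ways. Libraries of a group correlated with Pearson r of 0.990 to 0.998 across genes. Whether the 3 libraries of a group came from different cultures or mice is not stated. The p-values therefore describe the spread among libraries alone, and that spread may be technical. It was estimated per gene over all 21 libraries of the series, and not over the OT-I libraries alone. A p-value or SE for the OT-I groups thus also carries the spread of the other groups.

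Each gene was placed by comparing its mean over the 6 OT-I libraries with its highest mean in the 4 tumour-free groups, 0.1 RPKM being added to both. Genes at no more than 2 times the tumour-free level, with at least 1 RPKM there, were called lymphocyte-level genes and numbered 10285 (87.1%). Genes at 4 times or more were called co-culture genes and numbered 742. The remaining 779 were intermediate. The limits cut a continuous range: 136 genes lay at ratios of 4 to 5 and 227 at 3 to 4. Co-culture genes took 7.0% to 7.37% of the reads in acute and 6.37% to 6.56% in chronic libraries, against 0.190% to 0.584% in the 12 tumour-free libraries. A lymphocyte-level gene can also be expressed by the melanoma cells, and which cells carry its RNA cannot be told apart here. Because the ratio uses the OT-I libraries themselves, class counts are a description.

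**Figure D1:**
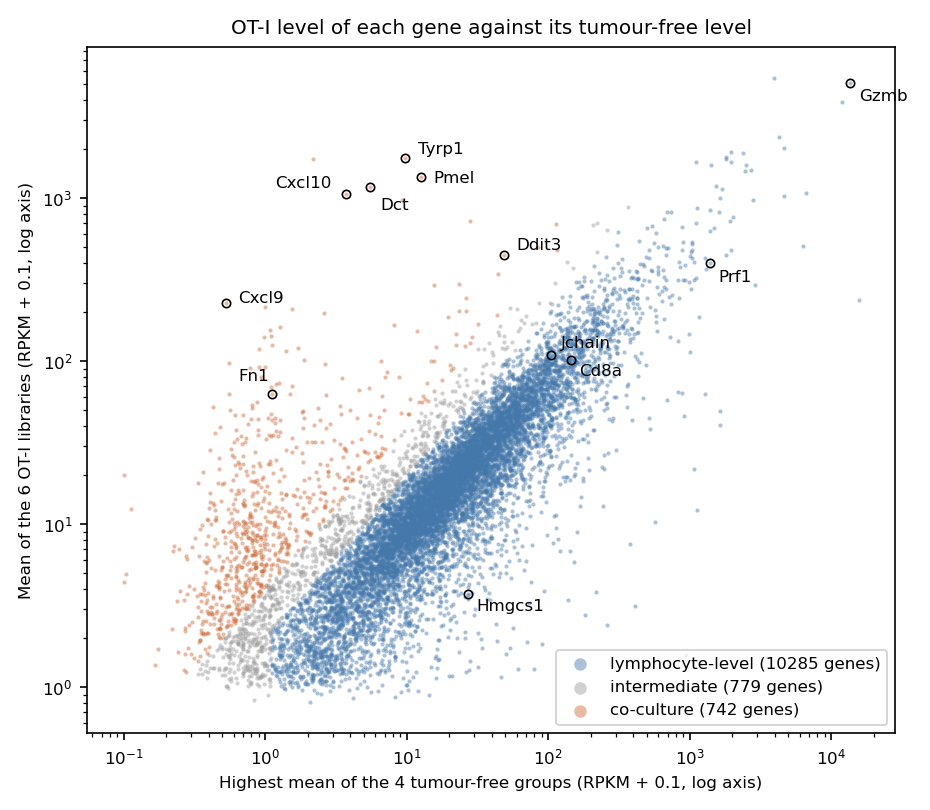
Each point is 1 of the 11806 genes: the mean of the 6 OT-I libraries (vertical, RPKM + 0.1, log axis) against the highest mean of the 4 tumour-free groups (horizontal, RPKM + 0.1, log axis), coloured by class. Pigment genes such as Tyrp1 and Pmel and the chemokines Cxcl9 and Cxcl10 stand far above the diagonal band that holds Cd8a, while Hmgcs1 lies below the band.

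Markers of both cell types named by the labels were present. All 12 melanocyte markers passed the rule, and their summed level was 7414 to 7701 RPKM in acute and 3982 to 4063 RPKM in chronic libraries, against 1.80 to 69.0 RPKM in the tumour-free libraries. The T cell markers were present too, with a summed level of 1345 to 1658 RPKM in acute and 1447 to 1468 RPKM in chronic libraries. Those sums overlapped, while the melanocyte sums did not. Cd8a, the CD8 coreceptor α chain, fell slightly from 106 ± 3.44 to 98.3 ± 2.97 RPKM (log2 change -0.11, SE 0.036; limma, adjusted p = 0.0133), and Cd8b1, the β chain, fell from 193 ± 21.5 to 135 ± 1.85 RPKM (log2 change -0.51, SE 0.059). Cd8a lost its call after rescaling to a common median (log2 change -0.020) and with OT-I libraries alone in the fit (-0.11). It also lost it without OT-I acute library 1 (-0.084) or chronic library 3 (-0.086). Cd4 and Foxp3 were at or below 1.97 RPKM in every OT-I library.

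Over all 12630 genes tested in the series 7395 (58.6%) were called. Of the 11806 genes, 7316 (62%) changed between chronic and acute OT-I libraries, 2813 higher (23.8%) and 4503 lower (38.1%). A change is a Benjamini-Hochberg adjusted p under 0.05 in limma's test on log2(RPKM + 1). All log2 changes below are chronic minus acute on that scale, where genes of low level show less than their full change. When libraries were rescaled to a common median, the split was 3442 higher and 3470 lower, and the median change of all genes tested moved from -0.12 to -0.04. By at least 2-fold, 368 genes rose (3.12%) and 351 fell (2.97%). The libraries of the 2 OT-I groups did not overlap for 8004 genes (67.8%), so a lack of overlap alone marks no gene out. Lymphocyte-level genes changed in 6462 cases, 2589 higher and 3873 lower, with a median of -0.08. Co-culture genes changed in 426 cases, 125 higher and 301 lower, with a median of -0.28. With OT-I libraries alone in the fit, 550 co-culture genes were called, 161 higher and 389 lower. Genes with no chronic library at 1 RPKM numbered 162 and those with no acute library there 64, and these entered the comparison through the group where they are high. Of the 162, 139 were called lower and 0 higher, and of the 64, 61 were called higher and 0 lower. The direction of these genes follows from the rule. Tox and Cd7 are among the 162, and Cd14, Lum and Ifi205 among the 64. Gene lists below are given as members higher and lower, beside the shares above and the median of all members, -0.10.

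Most genes of the killing machinery rose, from very unequal starting levels. Among 23 genes of cytotoxic granules and death ligands, 15 were higher and 5 lower (15 and 1 after rescaling to a common median), with a median of 0.91. Prf1, which encodes perforin, the pore-forming protein of the granule, was at 26.2, 24.7 and 24.7 RPKM in the acute libraries and 794, 769 and 757 RPKM in the chronic libraries. The 2 groups were separated by a wide gap (log2 change 4.89 with SE 0.077, adjusted p = 3.00e-20, limma). The granzymes rose from different levels. Gzmb, the main granzyme of activated CD8 T cells, was abundant in acute libraries and rose from 2986 ± 281 to 7259.6 ± 119 RPKM (log2 change 1.29, SE 0.11), while Gzma rose from 84.9 ± 11.6 to 389.8 ± 14.6 RPKM (log2 change 2.19, SE 0.090). The clustered granzymes Gzmc, Gzmd, Gzme, Gzmf and Gzmg all rose by more than Gzma on the log2 scale. Gzmd was at 32.5, 33.4 and 30.2 RPKM in the acute libraries and 559.9, 548 and 556 RPKM in the chronic libraries. Gzme rose from 12.3 to 283 RPKM (log2 change 4.41) and Gzmc from 251 to 1812 RPKM (log2 change 2.86). These are close copies of each other, between which reads may be split wrongly. Serpinb9, the granzyme B inhibitor that protects the killer cell, rose from 33.1 to 112 RPKM, and its relative Serpinb9b rose from 3.35 to 126 RPKM (log2 change 4.88). Not every gene of the list followed. Rab27a, the GTPase that docks granules, fell from 103 ± 1.78 to 59.8 ± 1.89 RPKM (log2 change -0.77). The granule proteoglycan gene Srgn was at 444 ± 57.9 RPKM (acute) against 458 ± 2.88 RPKM (chronic) (limma, adjusted p = 0.566). The death ligand gene Tnfsf10 (TRAIL) rose from 6.52 to 13.1 RPKM and Fasl from 24.2 to 27.00 RPKM (log2 changes 0.91 and 0.15).

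Cytokines rose in 14 of 18 genes and fell in 2, with a median of 1.04. Ifng, the gene of interferon-γ, was at 7.33, 7.04 and 6.11 RPKM in the acute libraries and 619, 637 and 641 RPKM in the chronic libraries (log2 change 6.34 with SE 0.079, adjusted p = 8.67e-22, limma). Its log2 rise was the largest among the 10285 lymphocyte-level genes. Lta, a secreted TNF relative, rose from 47.1 ± 2.14 to 139.7 ± 3.02 RPKM (log2 change 1.55, SE 0.14), whereas Ltb, which anchors it at the membrane, fell from 255 ± 54.5 to 60.98 ± 0.471 RPKM (log2 change -2.02, SE 0.11). Tnf rose from 19.96 to 34.2 RPKM, Tgfb1 from 83.5 to 154 RPKM and Csf2, a myeloid growth factor, from 3.49 to 11.2 RPKM. Il13, a type 2 cytokine gene, had a log2 change of 3.77, from 0.934 ± 0.999 to 23.3 ± 1.59 RPKM, and Il3 rose from 0.402 to 8.73 RPKM (log2 change 2.85). Il3 passed the rule mainly through its chronic libraries, so its direction largely follows from the rule. Il10 rose from 3.02 to 11.9 RPKM, a small share of its 380.2 RPKM in the highest tumour-free group. Penk, which encodes an opioid peptide precursor, rose from 2.66 to 40.5 RPKM. All 10 chemokine genes of the list rose, with a median of 2.36. Those that T cells make included Ccl3 (from 3.302 to 95.2 RPKM, log2 change 4.49), Ccl4 (from 5.54 to 87.1 RPKM, log2 change 3.75), Ccl5 (from 137 to 479 RPKM, log2 change 1.80) and Xcl1 (from 2.795 to 17.8 RPKM, log2 change 2.31). Ccl3 and Ccl4 attract other T cells and myeloid cells. In the highest tumour-free group they stood at 1648 and 915 RPKM, far above the chronic OT-I level.

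**Figure D2:**
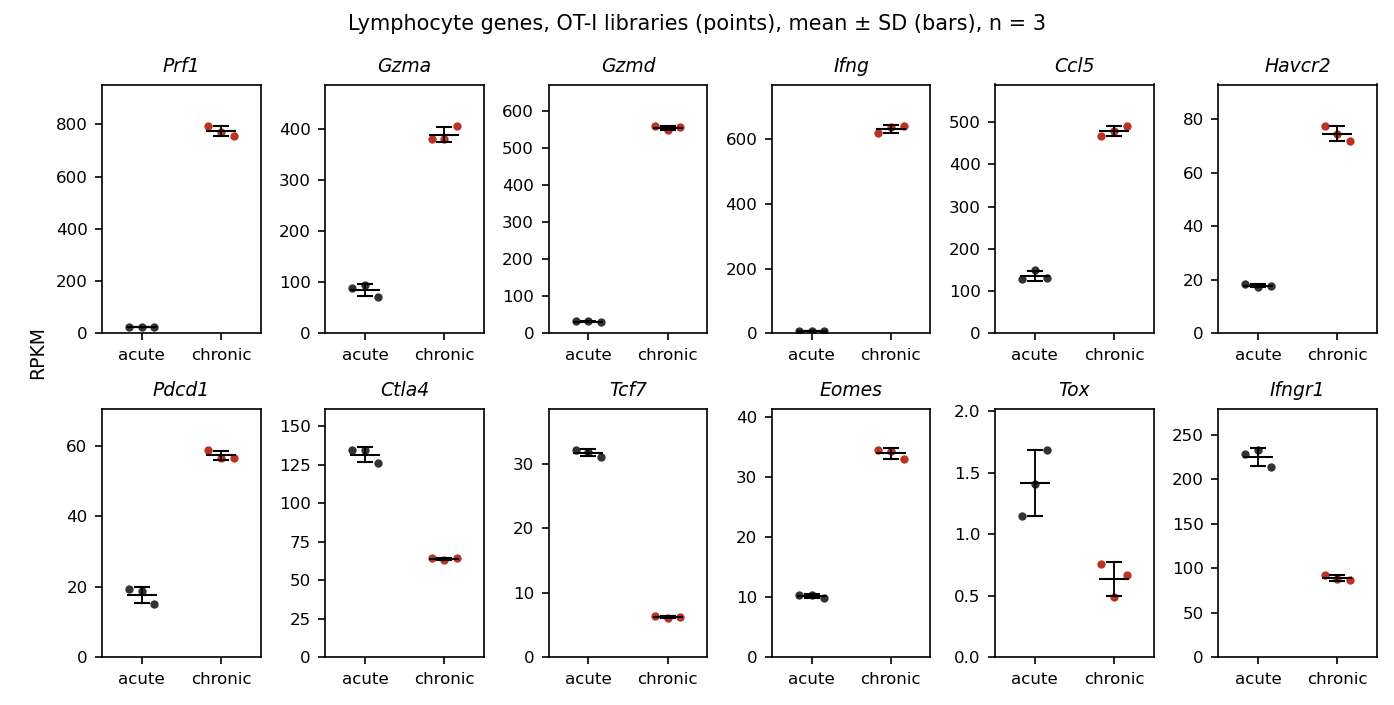
RPKM (vertical) of 12 lymphocyte-level genes in each OT-I library (points) with mean ± SD (bars), n = 3 per group, acute on the left and chronic on the right of each panel. The groups do not overlap in any panel, as holds for 67.8% of the 11806 genes: Ctla4, Tcf7, Tox and Ifngr1 are lower in the chronic libraries and the other 8 genes are higher.

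Genes of the immediate response to TCR signalling and of its brakes rose in 25 of 37 cases and fell in 5, with a median of 0.46. Rgs16, a brake on G protein signalling, rose from 9.74 ± 0.3801 to 101 ± 0.918 RPKM (log2 change 3.24, SE 0.048), and Rgs1, a relative, from 29.9 to 86.3 RPKM. The early growth response genes Egr1, Egr2 and Egr3 all rose, Egr3 the most, from 2.97 to 12.4 RPKM (log2 change 1.76). The NR4A receptors, orphan nuclear receptors induced by TCR signals, divided. Nr4a2 rose from 3.16 to 8.77 RPKM and Nr4a1 from 8.21 to 11.3 RPKM, while Nr4a3 was at 56.1, 53.1 and 66.5 RPKM in the acute libraries and 25.7, 25.7 and 23.8 RPKM in the chronic libraries, lower in each chronic library (log2 change -1.19 with SE 0.068, adjusted p = 1.40e-11, limma). Cd69, an early activation antigen that interferons also induce, fell from 105 ± 8.67 to 52.2 ± 0.651 RPKM (log2 change -0.99, SE 0.057).

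The receptor apparatus itself moved the other way. Of 29 genes of the TCR complex and proximal signalling, 19 fell and 5 rose, with a median of -0.30, and after rescaling to a common median 16 fell and 7 rose. Cd3g fell from 383 ± 55.9 to 243 ± 4.801 RPKM (log2 change -0.64, SE 0.080), Cd247, the signalling ζ chain, from 38.4 to 23.2 RPKM (log2 change -0.70), and Plcg1, the phospholipase of the calcium branch, from 28.3 to 17.6 RPKM (log2 change -0.65). Sla2, an adaptor that damps TCR signalling, fell too, from 29.5 to 16.03 RPKM (log2 change -0.84). Ptpn6, which encodes the phosphatase SHP-1, rose from 38.6 to 72.00 RPKM (log2 change 0.88) and Sh2d2a from 30.4 to 53.7 RPKM (log2 change 0.80). Lck was at 147 ± 16.3 RPKM (acute) against 150.4 ± 1.69 RPKM (chronic) and Zap70 at 48.4 ± 5.55 RPKM (acute) against 47.2 ± 0.882 RPKM (chronic), and neither kinase gene passed the test (limma, adjusted p = 0.625 and 0.733).

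Inhibitory receptors rose in 11 of 20 cases and fell in 7, so they had no common direction. Havcr2, which encodes TIM-3, was at 18.3, 17.2 and 17.8 RPKM in the acute libraries and 77.6, 74.7 and 71.9 RPKM in the chronic libraries (log2 change 2.01, SE 0.046). Pdcd1, which encodes PD-1, was at 19.3, 18.8 and 15.2 RPKM in the acute libraries and 58.8, 56.6 and 56.5 RPKM in the chronic libraries (log2 change 1.64, SE 0.076). Lag3 rose from 34.3 to 89.8 RPKM (log2 change 1.37), Cd200 from 3.37 to 15.5 RPKM (log2 change 1.94), Tigit from 55.8 to 84.3 RPKM (log2 change 0.59) and Entpd1, the ectoenzyme CD39, from 7.73 to 16.5 RPKM (log2 change 1.00). Ctla4 went against them, at 134, 134 and 126 RPKM in the acute libraries and 64.2, 62.9 and 64.1 RPKM in the chronic libraries. It was lower in each chronic library (log2 change -1.03 with SE 0.049, adjusted p = 7.59e-13, limma). Nt5e, the ectoenzyme CD73 that acts after CD39 in making adenosine, fell from 3.53 to 0.3698 RPKM (log2 change -1.72), and Cd160, Cd96, Vsir, Lilr4b and Cd200r1 fell too. With a chronic mean under 1 RPKM, Nt5e passed the rule mainly through its acute libraries, so its direction largely follows from the rule. Cd274, the PD-1 ligand gene, is a target of interferon-γ in tumour and T cells alike and rose from 56.7 to 123 RPKM (log2 change 1.10).

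Costimulatory receptors were divided, 8 of 18 higher and 7 lower (9 and 5 after rescaling). The inducible TNF receptor genes Tnfrsf9 (4-1BB), from 248 to 385 RPKM, Tnfrsf4 (OX40), from 48.9 to 80.2 RPKM, and Tnfrsf8 (CD30), from 19.4 to 56.04 RPKM, rose, by log2 changes of 0.63, 0.71 and 1.49. Receptors of resting and memory cells fell: Cd27 from 47.3 to 20.2 RPKM (log2 change -1.19), Cd226 (DNAM-1) from 13.4 to 4.86 RPKM (log2 change -1.30) and Cd7 from 6.75 ± 1.03 to 0.5596 ± 0.0937 RPKM (log2 change -2.31).

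Regulators of stem-like and memory T cells fell in 15 of 24 cases and rose in 3, with a median of -0.34 (16 and 1 without OT-I acute library 2). Tcf7, which encodes TCF1, was at 32.1, 31.9 and 31.1 RPKM in the acute libraries and 6.45, 6.07 and 6.33 RPKM in the chronic libraries (log2 change -2.17 with SE 0.067, adjusted p = 1.26e-15, limma). Its partner Lef1 fell from 56.1 ± 1.91 to 22.5 ± 1.05 RPKM (log2 change -1.28, SE 0.048), Klf2, which keeps homing genes on, from 7.97 to 2.72 RPKM (log2 change -1.27), Bach2 from 5.07 to 2.66 RPKM (log2 change -0.72) and the survival gene Bcl2 from 88.4 to 46.3 RPKM (log2 change -0.92). Other genes of this programme were not called lower. Id3, an inhibitor of E proteins that marks stem-like cells, was higher in each chronic library, with 20.5, 24.8 and 20.7 RPKM in the acute libraries and 34.4, 36.1 and 39.2 RPKM in the chronic libraries (log2 change 0.71, SE 0.13). Il7r was at 41.1 ± 1.98 RPKM (acute) against 42.9 ± 1.18 RPKM (chronic) and Ccr7 at 37.1 ± 3.72 RPKM (acute) against 37.9 ± 0.525 RPKM (chronic), with adjusted p in limma of 0.397 and 0.744. After rescaling Il7r was called higher (log2 change 0.15). Among effector and exhaustion factors 13 of 27 rose and 9 fell. The T-box gene Eomes was at 10.4, 10.4 and 9.89 RPKM in the acute libraries and 34.5, 34.3 and 32.9 RPKM in the chronic libraries (log2 change 1.64, SE 0.040), and its relative Tbx21 (T-bet) rose less, from 11.02 to 14.8 RPKM (log2 change 0.39). Irf8 rose from 16.99 ± 1.66 to 69.8 ± 0.831 RPKM (log2 change 1.98, SE 0.074), Irf4 from 43.5 to 77.3 RPKM, Prdm1 (Blimp-1) from 8.17 to 13.7 RPKM and Bhlhe40 from 105 to 164 RPKM. B cell and plasma cell markers rose in the same libraries, as given below, and their part in these changes was not tested. Tox, a nuclear factor known from exhausted T cells, had low levels throughout. It was at 1.15, 1.41 and 1.68 RPKM in the acute libraries and 0.754, 0.487 and 0.671 RPKM in the chronic libraries and lower in chronic libraries (log2 change -0.56 with SE 0.14, adjusted p = 0.00216, limma, and adjusted p = 0.0127 without OT-I acute library 3). Tox entered the comparison through its acute libraries alone, so its direction follows from the rule. Batf was at 24.9 ± 3.56 RPKM (acute) against 25.98 ± 0.534 RPKM (chronic) and Runx3 at 49.5 ± 0.504 RPKM (acute) against 46.3 ± 3.21 RPKM (chronic), and neither passed the test (limma, adjusted p = 0.515 and 0.136).

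Cytokine receptors fell in 11 of 22 cases and rose in 6, and the split was 10 lower and 9 higher after rescaling. The interferon receptors were on the falling side. Ifngr1, the ligand-binding chain of the interferon-γ receptor, was at 228, 233 and 214 RPKM in the acute libraries and 92.3, 87.97 and 86.99 RPKM in the chronic libraries (log2 change -1.33 with SE 0.044, adjusted p = 4.26e-15, limma). Ifngr2 fell from 23.3 to 17.9 RPKM, Ifnar1 from 25.7 to 14.5 RPKM and Ifnar2 from 32.1 to 25.1 RPKM. Il4ra fell from 79.5 to 36.2 RPKM (log2 change -1.11) and Il18r1 from 22.03 to 11.5 RPKM (log2 change -0.89). The IL-2 receptor chains Il2ra (from 197 to 319.99 RPKM) and Il2rb (from 236 to 415 RPKM) rose by log2 changes of 0.70 and 0.81, with the common chain Il2rg at 203 ± 10.8 RPKM (acute) against 207 ± 1.47 RPKM (chronic) (limma, adjusted p = 0.552). Il1r2, a decoy receptor for IL-1, rose from 2.45 ± 0.487 to 26.7 ± 1.23 RPKM (log2 change 3.01, SE 0.13).

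Homing receptors fell in 11 of 22 cases and rose in 6, the same counts after rescaling. Itgb7, the β chain of the gut-homing integrin, fell from 153 ± 12.9 to 38.4 ± 0.457 RPKM (log2 change -1.96, SE 0.070). Cxcr3, the receptor for CXCL9, CXCL10 and CXCL11, fell from 15.01 ± 1.55 to 7.22 ± 0.621 RPKM (log2 change -0.96, SE 0.095), in the libraries where those chemokine genes rose. S1pr1 fell from 7.74 to 4.02 RPKM and Cxcr4 from 16.2 to 7.01 RPKM. The β2 integrin chain gene Itgb2 rose from 89.6 to 177 RPKM (log2 change 0.98), and so did its partner Itgal (LFA-1), from 93.3 to 129.6 RPKM. Receptors shared with natural killer (NK) cells rose in 10 of 18 cases and fell in 3. The adaptor genes Tyrobp (from 4.54 to 20.3 RPKM, log2 change 1.95) and Fcer1g (from 27.3 to 61.6 RPKM, log2 change 1.16) rose, and so did Klrb1c (NK1.1), from 1.47 to 6.15 RPKM, and Ncr1 (NKp46), from 0.893 to 5.18 RPKM. Klrd1, already abundant, fell from 181 to 125 RPKM and Klrk1 (NKG2D) from 53.3 to 47.3 RPKM, though Klrk1 lost its call after rescaling (log2 change -0.081). NK cell markers moved with this group: all 4 marker genes measured rose, their summed level going from 85.1 to 107 RPKM in acute to 427 to 450.3 RPKM in chronic libraries, most of it Gzma, and none was at 0. Ncr1 and Klrb1c stand in both lists. Their part in the result was not tested.

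Genes of the melanocyte pigment programme fell together. Of 29 members, 24 were lower and 0 higher, with a median of -0.86, against 38.1% of all genes lower. After rescaling 23 were lower and 0 higher. Over all alternative fits the lower count ran from 16 to 24 and the higher count from 0 to 1. Mlana, Gpnmb, Mc1r, Kit and Sox10 did not pass the test in limma. Tyr, which encodes tyrosinase, the rate-limiting enzyme of melanin synthesis, was at 78.4, 74.5 and 82.1 RPKM in the acute libraries and 21.6, 21.4 and 20.6 RPKM in the chronic libraries (log2 change -1.84 with SE 0.14, adjusted p = 1.03e-09, limma). Its relatives Tyrp1 and Dct, the later enzymes of the pathway, fell from 2281 ± 91.98 to 1244 ± 6.97 RPKM (log2 change -0.87, SE 0.22) and from 1519.99 ± 63.9 to 834 ± 14.4 RPKM (log2 change -0.86, SE 0.17). Pmel, the amyloid of the pigment granule, was at 1956, 2105 and 1979 RPKM in the acute libraries and 657, 684 and 698 RPKM in the chronic libraries (log2 change -1.57, SE 0.20). Trpm1, a cation channel gene of melanocytes, fell most in the list, from 30.9 ± 1.37 to 5.74 ± 0.0868 RPKM (log2 change -2.24, SE 0.20), and the melanosomal transporters Oca2 (from 9.16 to 1.69 RPKM), Slc24a5 (from 147 to 45.9 RPKM) and Slc45a2 (from 184 to 67.4 RPKM) followed. Mitf, the master factor of the lineage, fell from 99.6 ± 9.195 to 44.5 ± 1.87 RPKM (log2 change -1.14, SE 0.17). Some genes of the list were not called lower. Sox10, a factor upstream of Mitf, was at 131, 134 and 126 RPKM in the acute libraries and 146, 155 and 149 RPKM in the chronic libraries (limma, adjusted p = 0.186), and it was called higher with OT-I libraries alone in the fit and with voom (log2 change 0.20 in both). The antigen gene Mlana was at 996, 1114 and 917 RPKM in the acute libraries and 913, 923 and 951 RPKM in the chronic libraries, so its groups overlapped, and the melanosomal glycoprotein gene Gpnmb was at 712 ± 15.4 RPKM (acute) against 736 ± 23.6 RPKM (chronic).

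MITF binds an element called the M-box, and the promoters of the enzymes Tyr and Tyrp1 are shown because they carry it close to the start of a gene that fell. The letters searched were TCATGTGCT on both strands, in the 250 bases before each start in the RefSeq promoter table (build GRCm38.p6). Tyr lies at chr7:87493513-87493762 (minus strand) and Tyrp1 at chr4:80833963-80834212 (plus strand), with the M-box in capitals.
Tyr: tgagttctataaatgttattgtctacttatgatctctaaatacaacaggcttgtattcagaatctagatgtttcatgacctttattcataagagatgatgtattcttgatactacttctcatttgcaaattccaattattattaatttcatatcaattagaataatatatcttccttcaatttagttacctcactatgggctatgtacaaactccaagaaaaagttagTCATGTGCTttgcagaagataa
Tyrp1: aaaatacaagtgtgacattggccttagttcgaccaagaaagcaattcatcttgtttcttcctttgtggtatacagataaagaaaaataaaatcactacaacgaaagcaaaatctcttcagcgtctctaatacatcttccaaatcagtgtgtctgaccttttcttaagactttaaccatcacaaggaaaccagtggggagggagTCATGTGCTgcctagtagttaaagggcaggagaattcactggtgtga
The element begins 22 bases before the Tyr start and 47 before the Tyrp1 start. Of the 29 pigment genes 21 matched the table, and 3 of them (Dct, Tyr and Tyrp1) held these letters, against 0.335% of all 32851 windows. Here and below a gene counts if any of its windows holds the letters, while the share is of single windows, so they are unlike measures. All 3 fell. A match of letters is a description and not a binding site.

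Against this fall, another set of co-culture genes rose strongly. Cxcl9 was at 3.49, 3.79 and 3.91 RPKM in the acute libraries and 455, 444 and 446 RPKM in the chronic libraries, with 0.426 RPKM in the highest tumour-free group (log2 change 6.57 with SE 0.15, adjusted p = 6.83e-18, limma). Cxcl10 was at 327, 347 and 326 RPKM in the acute libraries and 1747, 1775 and 1809 RPKM in the chronic libraries (log2 change 2.41, SE 0.16), and Cxcl11 rose from 19.3 ± 1.24 to 163 ± 1.805 RPKM (log2 change 3.02, SE 0.21). Each of the 3 genes was higher in every chronic library than in any acute one, and each is a chemokine that interferon-γ induces. Ubd, a ubiquitin-like modifier induced by interferon-γ and TNF, rose from 3.18 ± 0.122 to 123 ± 3.06 RPKM (log2 change 4.89, SE 0.15), Apol6 from 2.83 to 84.9 RPKM (log2 change 4.50) and Serping1, the inhibitor of complement C1, from 4.37 to 42.4 RPKM (log2 change 3.03). Batf2 rose from 16.4 to 73.3 RPKM (log2 change 2.10). Of the 26 genes of the interferon-γ list 19 rose and 6 fell, with a median of 0.67. Gbp2, a guanylate-binding protein gene, was at 314, 318 and 316 RPKM in the acute libraries and 1099, 1060.5 and 1083 RPKM in the chronic libraries (log2 change 1.77, SE 0.040), and the immunity-related GTPases Igtp (from 523 to 849 RPKM) and Iigp1 (from 269 to 418 RPKM) rose by log2 changes of 0.70 and 0.64. Among the 10 list members in the co-culture class, all 10 rose, while the 10 lymphocyte-level members had 4 higher and 6 lower. Among those that fell were Gbp6, Gbp7, Gbp8, Gbp9 and Irf9, with Gbp6 going from 87.1 to 48.8 RPKM (log2 change -0.82). The guanylate-binding protein genes are close copies, between which reads may be split wrongly.

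**Figure D3:**
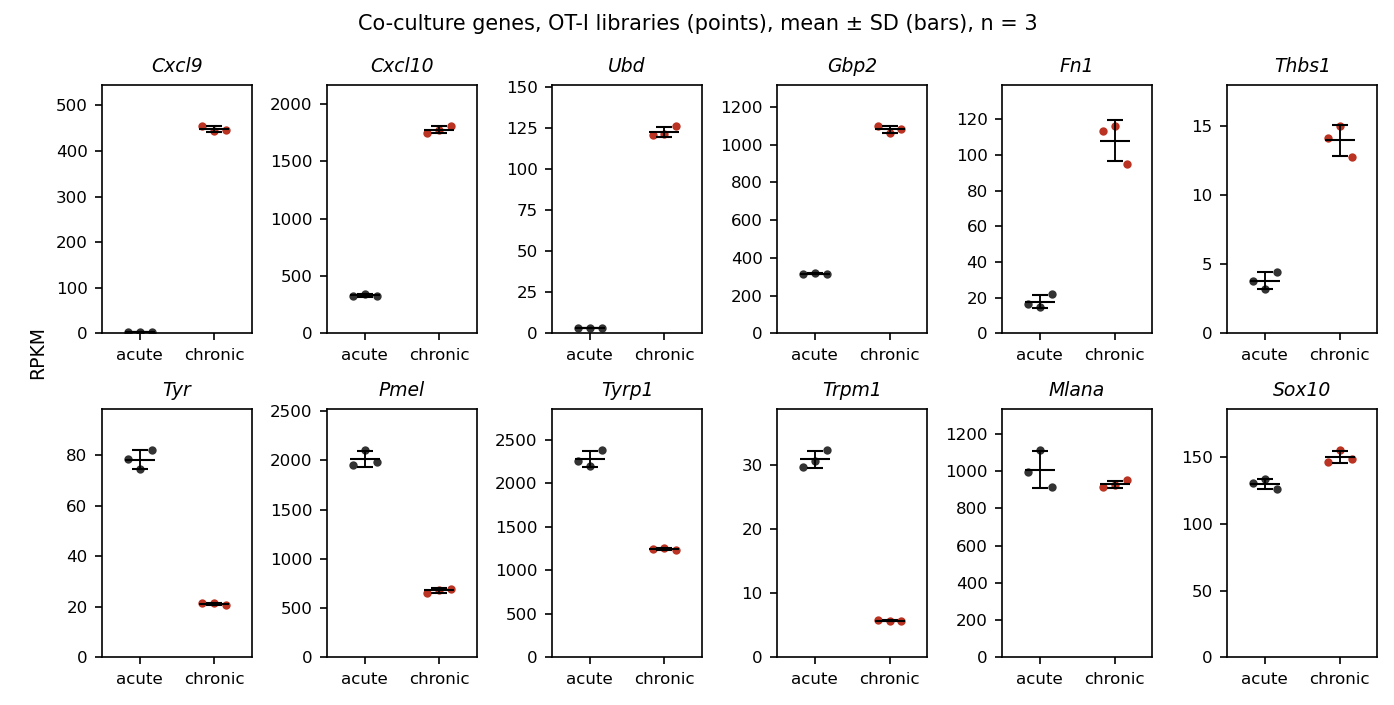
RPKM (vertical) of 12 co-culture genes in each OT-I library (points) with mean ± SD (bars), n = 3 per group, acute on the left and chronic on the right of each panel. The first 6 panels (Cxcl9, Cxcl10, Ubd, Gbp2, Fn1 and Thbs1) are higher in chronic libraries, Tyr, Pmel, Tyrp1 and Trpm1 are lower, the points of Mlana overlap, and Sox10 did not pass the test although its points are separate.

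Genes known mainly from type I interferon had no common direction. Of 28 members 3 rose and 6 fell, with a median of -0.05, and after rescaling 7 rose and 3 fell. Without OT-I acute library 2, 5 rose and 4 fell. Ifit1 was at 208 ± 13.1 RPKM (acute) against 200.2 ± 4.04 RPKM (chronic), Ifit3 at 302 ± 24.8 RPKM (acute) against 286 ± 11.7 RPKM (chronic) and Usp18 at 188 ± 13.1 RPKM (acute) against 183 ± 4.79 RPKM (chronic) (limma, adjusted p = 0.59, 0.569 and 0.654). Both OT-I groups stood far above the tumour-free level of these 3 genes: Ifit1 reached 23.4 RPKM, Ifit3 reached 15.6 RPKM and Usp18 19.6 RPKM in the highest tumour-free group. The 3 that rose were Ifit2, Oas3 and Mx1, with Ifit2 going from 147 ± 9.93 to 445 ± 19.3 RPKM (log2 change 1.60 with SE 0.073, adjusted p = 4.51e-13, limma).

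Both sets share a promoter element, and Cxcl10 and Ifit1 are shown because they hold it while Cxcl10 rose and Ifit1 did not pass the test. It is the core of the interferon-stimulated response element, searched on both strands as GAAA, any 2 bases and GAAA (in capitals, RefSeq, GRCm38.p6). Cxcl10 lies at chr5:92348890-92349139 (minus strand) and Ifit1 at chr19:34640639-34640888 (plus strand).
Cxcl10: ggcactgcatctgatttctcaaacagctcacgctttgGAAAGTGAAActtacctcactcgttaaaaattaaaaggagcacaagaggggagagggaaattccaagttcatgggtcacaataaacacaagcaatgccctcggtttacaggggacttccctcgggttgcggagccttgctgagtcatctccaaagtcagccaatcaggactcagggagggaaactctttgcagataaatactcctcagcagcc
Ifit1: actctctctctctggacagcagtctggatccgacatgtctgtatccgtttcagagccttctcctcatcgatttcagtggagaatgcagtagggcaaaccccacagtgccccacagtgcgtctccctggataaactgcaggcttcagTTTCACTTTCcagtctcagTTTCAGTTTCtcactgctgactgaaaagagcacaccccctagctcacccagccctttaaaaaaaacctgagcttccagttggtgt
The element begins 213 bases before the Cxcl10 start. In Ifit1 it occurs at 104 and at 85 bases before the start, on the opposite strand. In the interferon-γ list 16 of 26 genes matched the table and 10 held the letters, of which 8 rose and 1 fell. In the type I list 21 of 28 matched and 10 held them, of which 1 rose and 2 fell. The share over all windows was 2.98%.

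Antigen presentation genes split by class. For MHC class I and peptide loading 8 of 21 rose and 6 fell, with a median of 0.09 (9 and 3 after rescaling, 8 and 3 without OT-I acute library 1). The class I heavy chain gene H2-K1 was at 1631 ± 254 RPKM (acute) against 1726 ± 119.7 RPKM (chronic) and B2m at 5625 ± 404 RPKM (acute) against 5269.7 ± 175 RPKM (chronic) (limma, adjusted p = 0.411 and 0.399). B2m was called lower (log2 change -0.13) when OT-I acute library 3 and the 2 polyclonal libraries with raised low genes were left out. Peptide loading partners rose, Tapbp (tapasin) from 236 to 386 RPKM and Erap1 from 37.2 to 61.8 RPKM, while Tap1 fell from 276 to 212 RPKM. MHC class II genes rose in 8 of 10 cases and fell in 1. Ciita, the class II transactivator, rose from 1.898 ± 0.394 to 11.9 ± 0.832 RPKM (log2 change 2.16, SE 0.17), H2-Aa from 64.2 ± 5.28 to 188 ± 7.86 RPKM (log2 change 1.54, SE 0.21) and Cd74, the invariant chain, from 316 to 700.1 RPKM (log2 change 1.14). B cells carry class II, and their markers rose in the same libraries: 5 of 7 B cell markers measured were higher, and the summed level over the 9 marker genes in the table went from 6.10 to 14.96 RPKM in acute to 40.6 to 43.6 RPKM in chronic libraries, with none at 0. Cd79b, of the B cell receptor, rose from 3.56 to 15.3 RPKM. Their part in the class II result was not tested. In polyclonal cells B cell markers also rose with chronic stimulation, to a summed 213 to 233 RPKM, and the highest tumour-free level of H2-Aa, Cd74, Jchain, Mzb1 and Pou2af1 is that of the polyclonal chronic cells.

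Markers of antibody-secreting cells rose with them. Jchain, the joining chain of IgM and IgA, was at 7.55, 8.57 and 6.53 RPKM in the acute libraries and 214, 208 and 213 RPKM in the chronic libraries (log2 change 4.64 with SE 0.17, adjusted p = 1.30e-14, limma). Mzb1, whose product helps assemble IgM, rose from 7.59 ± 0.168 to 155 ± 3.596 RPKM (log2 change 4.18, SE 0.14), and Pou2af1, a coactivator of immunoglobulin genes, from 1.54 ± 0.368 to 51.5 ± 2.34 RPKM (log2 change 4.38, SE 0.20). In the tumour-free vehicle cells the log2 changes were 0.28 for Jchain, 0.75 for Mzb1 and -0.33 for Pou2af1, of which that of Mzb1 passed the test. The summed level of the 3 plasma cell markers measured (Jchain, Mzb1 and Sdc1) went from 0.316 to 0.626 RPKM in vehicle acute to 17.9 to 20.2 RPKM in vehicle chronic libraries, most of it Sdc1 (from 0.134 to 17.4 RPKM). Myeloid markers were at low levels, with Mpeg1, a pore-forming protein of macrophages, rising from 1.96 to 15.6 RPKM and Cd14 from 0.349 to 2.38 RPKM. The summed level of the 7 myeloid genes in the table was 8.82 to 14.7 RPKM in acute and 25.1 to 27.3 RPKM in chronic libraries. The CD4 T cell genes summed to 36.7 to 41.5 RPKM in acute and 23.4 to 24.6 RPKM in chronic libraries, nearly all of it Zbtb7b. Of the fibroblast genes Lum rose from 0.322 to 4.33 RPKM, while Col1a1 and Col1a2 were not among the genes compared. Of the endothelial genes Pecam1 and Vwf fell, but both lost the call without OT-I acute library 3 (limma, adjusted p = 0.171 and 0.0825), and Pecam1 also without acute library 1 or any 1 chronic library.

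Other co-culture genes were not of 1 kind. Matrix and adhesion genes rose in 10 of 29 cases and fell in 6 (9 and 4 without OT-I acute library 3, 10 lower with OT-I libraries alone in the fit and 3 lower with a pseudocount of 0.1). Fn1, which encodes fibronectin, was at 16.3, 14.9 and 22.02 RPKM in the acute libraries and 113, 116 and 94.8 RPKM in the chronic libraries (log2 change 2.55, SE 0.27), and the matrix protein gene Thbs1 rose from 3.82 to 13.9 RPKM (log2 change 1.64). Mcam, a melanoma adhesion molecule, rose from 24.2 ± 1.32 to 68.9 ± 1.65 RPKM (log2 change 1.48, SE 0.16). Sparc was at 97.8 ± 2.702 RPKM (acute) against 143 ± 3.59 RPKM (chronic) and did not pass the test (limma, adjusted p = 0.0859), but was called higher after rescaling and with OT-I libraries alone (log2 changes 0.64 and 0.55), while Timp3 fell from 13.8 to 5.74 RPKM (log2 change -1.14). The neuronal cytoskeleton genes Tubb3 (from 19.5 to 121 RPKM, log2 change 2.58) and Prph (from 12.9 to 92.4 RPKM, log2 change 2.75) rose. Among the deepest falls of the class were Cox6a2, a muscle-type subunit of cytochrome oxidase (from 29.4 ± 5.01 to 0.954 ± 0.156 RPKM, log2 change -3.95), Angptl6 (from 36.5 to 1.52 RPKM, log2 change -3.89), Gjb2, a gap junction gene (from 43.8 to 7.400 RPKM, log2 change -2.42), and Chchd10, a mitochondrial gene (from 404 to 84.5 RPKM, log2 change -2.24). Of the 742 co-culture genes 477 were under 1 RPKM in every tumour-free group, while 68 reached 5 RPKM or more in one, Chchd10 among them with 26.1 RPKM. The small RNA gene Mir6236 was at 652, 2769.9 and 1431 RPKM in the acute libraries and 248, 136 and 5224 RPKM in the chronic libraries. Its call hung on 1 library, since it passed the test without OT-I chronic library 3 (log2 change -2.89) and missed it with that library.

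RNA of most listed genes of the integrated stress response was lower in chronic libraries. This response is run by the factors ATF4 and CHOP, which switch on amino acid uptake and synthesis when translation initiation is held back. Of its 17 genes 16 fell and 1 rose, with a median of -1.36 (the same counts after rescaling). All 7 lymphocyte-level and all 4 co-culture members fell. Trib3, a pseudokinase that CHOP induces, was at 248, 277 and 234 RPKM in the acute libraries and 38.7, 40.8 and 40.8 RPKM in the chronic libraries (log2 change -2.63, SE 0.081). Ddit3, which encodes CHOP, was at 738, 801 and 629.9 RPKM in the acute libraries and 175, 177 and 184 RPKM in the chronic libraries (log2 change -2.00, SE 0.079), and every acute library exceeded every chronic one. Ppp1r15a, the phosphatase subunit that ends the response, fell from 77.5 ± 3.25 to 14.8 ± 0.522 RPKM (log2 change -2.31, SE 0.064), Atf5 from 128 to 36.2 RPKM (log2 change -1.79) and Atf4 itself from 470.5 ± 32.7 to 278 ± 1.69 RPKM (log2 change -0.75, SE 0.054). Chac1, a glutathione-degrading enzyme gene, fell from 68.6 ± 4.96 to 26.1 ± 1.195 RPKM (log2 change -1.36, SE 0.12). Atf3, which TCR signals also induce, was alone in rising, from 37.8 ± 1.92 to 63.3 ± 1.71 RPKM (log2 change 0.73 with SE 0.069, adjusted p = 2.06e-08, limma).

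Chac1 and Atf3 are shown because both carry the CHOP-ATF element, TGATGCAA, and moved in opposite directions (either strand, in capitals, RefSeq, GRCm38.p6). Chac1 lies at chr2:119350992-119351241 (plus strand) and Atf3 at chr1:191183334-191183583 (minus strand).
Chac1: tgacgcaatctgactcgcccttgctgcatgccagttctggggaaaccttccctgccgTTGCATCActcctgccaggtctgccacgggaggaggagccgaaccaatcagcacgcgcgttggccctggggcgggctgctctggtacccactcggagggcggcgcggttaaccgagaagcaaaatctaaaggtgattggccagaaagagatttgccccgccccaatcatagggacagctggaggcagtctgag
Atf3: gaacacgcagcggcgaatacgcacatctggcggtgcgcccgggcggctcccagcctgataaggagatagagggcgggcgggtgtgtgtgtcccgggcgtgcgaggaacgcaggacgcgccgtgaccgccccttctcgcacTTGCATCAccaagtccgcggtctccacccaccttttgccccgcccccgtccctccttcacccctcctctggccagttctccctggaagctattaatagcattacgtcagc
The element begins 193 bases before the Chac1 start and 110 before the Atf3 start, in both on the opposite strand. Of the 17 genes 16 matched the table and 5 held it, of which 4 fell and 1 rose, against 0.791% of all windows.

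Amino acid supply genes, many of them known ATF4 targets, were mixed. Amino acid transporters fell in 9 of 16 cases and rose in 1. Slc7a11, the cystine carrier, fell from 8.11 ± 1.41 to 2.38 ± 0.257 RPKM (log2 change -1.42, SE 0.17), Slc3a2, its heavy chain, from 231 to 141 RPKM (log2 change -0.70), and Slc7a5, the leucine carrier, from 220.02 to 183 RPKM (log2 change -0.27, and -0.18 without a call after rescaling). In serine and one-carbon metabolism 11 of 21 genes fell and 7 rose (10 and 9 after rescaling), and the folate enzymes split. Mitochondrial Aldh1l2 fell from 27.3 ± 3.82 to 6.63 ± 0.462 RPKM (log2 change -1.88, SE 0.25), Shmt2 from 191 to 134 RPKM (log2 change -0.51) and Mthfd2 from 199 to 139 RPKM (log2 change -0.51). Cytosolic Shmt1 rose from 8.99 ± 0.736 to 25.9 ± 0.279 RPKM (log2 change 1.43, SE 0.078) and Mthfd1 from 14.8 ± 0.122 to 38.99 ± 0.678 RPKM (log2 change 1.34, SE 0.055), but mitochondrial Mthfd1l rose too, from 28.9 to 46.5 RPKM (log2 change 0.67). Asns, asparagine synthetase, fell from 253 to 145 RPKM (log2 change -0.80) and Cth, which makes cysteine, from 27.4 to 9.21 RPKM (log2 change -1.48). Among cytosolic aminoacyl-tRNA synthetases 10 of 20 fell and 6 rose (7 and 7 after rescaling), with Sars from 176 to 105 RPKM and Farsa from 31.8 to 52.6 RPKM at the ends.

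Sterol synthesis genes rose almost throughout. Cells short of cholesterol activate the factor SREBP-2, which induces the enzymes from acetyl-CoA to cholesterol. Of 24 genes 23 rose and none fell, with a median of 1.03, and only Tm7sf2 missed the test (limma, adjusted p = 0.251; 23 higher and 0 lower after rescaling too). Hmgcs1, which makes HMG-CoA, was at 1.34, 1.42 and 1.63 RPKM in the acute libraries and 5.88, 5.78 and 5.63 RPKM in the chronic libraries (log2 change 1.46 with SE 0.13, adjusted p = 1.33e-08, limma). Fdps, which makes farnesyl pyrophosphate, rose from 9.601 to 30.7 RPKM and Sqle, squalene epoxidase, from 35.5 to 53.2 RPKM. Both OT-I groups lay below the level of T cells alone for Hmgcs1. Its highest tumour-free mean was 27.2 RPKM, above every chronic OT-I library. Hmgcs1 is shown because it holds the classical sterol regulatory element, TCACNCCAC (in capitals, RefSeq, GRCm38.p6), at chr13:119690101-119690350 (plus strand).
Hmgcs1: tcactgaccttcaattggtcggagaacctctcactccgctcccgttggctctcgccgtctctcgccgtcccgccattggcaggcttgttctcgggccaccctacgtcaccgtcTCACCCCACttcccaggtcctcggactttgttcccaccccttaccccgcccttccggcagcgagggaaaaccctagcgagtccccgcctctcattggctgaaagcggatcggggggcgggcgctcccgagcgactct
The element begins 137 bases before the start. It was the sole holder of these letters among 17 matched sterol genes, against 1.05% of all windows. Of 10 genes of cholesterol efflux and liver X receptor targets 6 were lower and 1 higher (5 and 2 after rescaling). The exporter Abcg1 fell from 6.94 ± 0.331 to 2.06 ± 0.00459 RPKM (log2 change -1.38, SE 0.097) and Abca1 from 4.55 to 2.87 RPKM (log2 change -0.50), but Abca1 lost its call without OT-I acute library 3 (limma, adjusted p = 0.193), without any 1 of the chronic libraries and after rescaling. Apoe, a co-culture gene that also stands in the pigment list, fell from 264 to 133 RPKM. Fatty acid synthesis rose in 10 of 17 cases and fell in 3. Fasn rose from 19.98 ± 1.79 to 52.9 ± 2.67 RPKM (log2 change 1.36, SE 0.066), the desaturase Fads2 from 24.04 ± 1.22 to 94.8 ± 4.14 RPKM (log2 change 1.94, SE 0.056) and Acly, which supplies cytosolic acetyl-CoA, from 49.8 to 90.6 RPKM (log2 change 0.85).

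Protein folding genes of the endoplasmic reticulum rose in 16 of 26 cases and fell in 7. Those that rose included Sdf2l1 (from 23.7 ± 1.803 to 104 ± 3.11 RPKM, log2 change 2.09), Calr (from 204 ± 8.17 to 691 ± 16.8 RPKM, log2 change 1.75) and Pdia6 (from 90.8 to 215 RPKM, log2 change 1.24). Hspa5, which encodes the chief chaperone BiP, was at 497 ± 27.3 RPKM (acute) against 505 ± 9.73 RPKM (chronic) (limma, adjusted p = 0.751). The sensor gene Atf6 fell from 21.5 to 13.3 RPKM and Herpud1 from 102 to 56.9 RPKM. The sensor gene Ern1 fell from 11.9 to 8.16 RPKM, but lost its call without OT-I acute library 3 (limma, adjusted p = 0.104) or without chronic library 3. Plasma cells express these chaperones highly, and the 3 plasma cell markers measured rose in the same libraries, from a summed 16.5 to 18.1 RPKM to 367 to 375 RPKM. Their part in the result was not tested. Heat shock proteins rose in 13 of 19 cases and fell in 1. Hspa8 rose from 56.2 to 128 RPKM (log2 change 1.18) and Hsph1 from 19.6 to 53.9 RPKM (log2 change 1.41), while the mitochondrial Hspa9 fell from 448 ± 10.8 to 213 ± 6.32 RPKM (log2 change -1.07, SE 0.054). Proteasome subunits rose in 19 of 32 cases and fell in 2, by small amounts, with a median of 0.24, and without OT-I acute library 3 there were 15 higher and 4 lower. Without acute library 2 or chronic library 1, 1 proteasome gene was lower.

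Glycolysis genes had no common direction, with 6 of 23 higher and 6 lower (4 and 7 without OT-I acute library 3). Hk2 rose from 23.1 to 37.5 RPKM and Ldha from 388 to 549 RPKM (log2 changes 0.67 and 0.51), while Pdk1, which blocks pyruvate entry into mitochondria, fell from 33.9 ± 1.08 to 15.7 ± 0.3801 RPKM (log2 change -1.06, SE 0.054). Gapdh was at 6.36 ± 0.203 RPKM (acute) against 6.197 ± 0.166 RPKM (chronic) and Pgk1 at 24.9 ± 5.85 RPKM (acute) against 27.1 ± 0.556 RPKM (chronic), levels that are uncertain because these genes have near-identical processed copies. Hypoxia targets fell in 13 of 20 cases and rose in 1, with a median of -0.46 (15 and 1 without OT-I acute library 3). Vegfa fell from 33.9 ± 0.603 to 15.1 ± 0.847 RPKM (log2 change -1.12, SE 0.093), Ankrd37 from 12.4 to 4.68 RPKM (log2 change -1.24), Bnip3l from 33.9 to 16.9 RPKM (log2 change -0.96) and Hif1a itself from 149 to 89.4 RPKM (log2 change -0.73), but the glucose carrier Slc2a1 was at 49.5 ± 2.25 RPKM (acute) against 46.96 ± 1.73 RPKM (chronic) (limma, adjusted p = 0.349).

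Mitochondrial genes moved by small amounts, and their counts depended on single libraries. Complex I subunits fell in 8 of 36 cases and rose in 4, with a median of -0.04, and the remaining complexes rose in 11 of 40 cases and fell in 6. Without OT-I acute library 3, complex I had 2 higher and 17 lower and the remaining complexes 8 higher and 15 lower. The remaining complexes had 3 lower without acute library 2 or chronic library 1. Rescaling gave 5 and 5 for complex I and 13 and 3 for the remaining complexes, so no direction holds for either list. TCA cycle genes rose in 11 of 25 cases and fell in 6 (9 and 8 without that library). Its largest change was in Pcx, pyruvate carboxylase, which rose from 7.77 ± 0.273 to 17.1 ± 0.788 RPKM (log2 change 1.04, SE 0.080), and mitochondrial Idh2 fell from 64.7 ± 1.92 to 40.4 ± 1.67 RPKM (log2 change -0.67, SE 0.076). Genes of mitochondrial biogenesis, dynamics and mitophagy fell in 12 of 24 cases and rose in 3 (10 and 5 after rescaling). Ppargc1a, which encodes the coactivator PGC-1α, was a co-culture gene with at most 0.376 RPKM in tumour-free groups, and it fell from 5.34 ± 0.957 to 2.48 ± 0.131 RPKM (log2 change -0.85, SE 0.16), a call lost with a pseudocount of 0.1. Its relative Pprc1 rose from 13.03 ± 1.81 to 24.1 ± 0.418 RPKM (log2 change 0.85, SE 0.074), the deacetylase Sirt3 fell from 16.5 to 8.91 RPKM and the mitophagy kinase Pink1 from 44.3 to 26.9 RPKM. Tfam, which packages mitochondrial DNA, fell from 22.1 to 15.7 RPKM (log2 change -0.46).

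Of 33 antioxidant genes 14 fell (42.4%) and 8 rose (24.2%), near the shares over all members, 38.1% and 23.8% (10 and 9 after rescaling). As a list they thus did not stand out from other genes. NRF2-linked Hmox1 fell from 82.2 ± 3.07 to 35.3 ± 0.723 RPKM (log2 change -1.20, SE 0.096), and Nfe2l2, which encodes NRF2, from 50.9 to 32.1 RPKM (log2 change -0.65). Txn1, thioredoxin, was at 218, 244 and 184 RPKM in the acute libraries and 494, 493 and 524 RPKM in the chronic libraries (log2 change 1.23, SE 0.082). G6pdx, the first enzyme of the pentose phosphate pathway, rose from 25.3 ± 0.506 to 56.8 ± 0.4702 RPKM (log2 change 1.13, SE 0.054), and so did Pgd from 49.9 to 76.2 RPKM and Tkt from 81.3 to 145 RPKM of the same list.

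Cell cycle genes separated by phase. Of 40 DNA replication genes 34 rose and 4 fell, with a median of 0.43 (35 and 2 after rescaling), whereas of 40 mitosis genes 7 rose and 24 fell, with a median of -0.17 (10 and 17 after rescaling). Cdc6, which loads the replicative helicase, rose from 3.77 ± 0.228 to 8.84 ± 0.175 RPKM (log2 change 1.05, SE 0.071), Rrm2, the ribonucleotide reductase subunit, from 57.4 ± 0.954 to 115 ± 4.68 RPKM (log2 change 0.99, SE 0.042), and Mcm5, a helicase subunit, from 33.9 to 57.1 RPKM (log2 change 0.73). Mitotic Ndc80, of the kinetochore, fell from 36.8 ± 2.29 to 16.2 ± 0.684 RPKM (log2 change -1.13, SE 0.057), Nusap1 from 45.4 to 27.7 RPKM (log2 change -0.69) and Ccnb2 from 68.7 to 47.7 RPKM (log2 change -0.52). All other called mitosis genes changed by less than 2-fold. Dividing tumour cells and T cells express both sets, and their shares cannot be told apart. Of 21 p53 targets 8 rose and 4 fell, with Cdkn1a, the cell cycle inhibitor p21, rising from 151 to 253 RPKM (log2 change 0.74) and Trp53inp1 falling from 64.8 to 28.3 RPKM (log2 change -1.17). Lysosome genes fell in 15 of 34 cases (44.1%) and rose in 9 (26.5%), near the 38.1% and 23.8% of all members (10 and 13 after rescaling).

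The OT-I effect was then set against the effect of chronic anti-CD3 in tumour-free cells, by testing the difference of the effects in the same fit. Below, OT-I cells stands for the OT-I libraries, which also held RNA of the melanocyte markers. Chronic stimulation changed 7157 of the 11806 genes in vehicle cells (60.6%) and 7717 in polyclonal cells (65.4%). The OT-I effect differed from the vehicle effect for 7154 genes (60.6%) and from the polyclonal effect for 6757 (57.2%). For 2029 genes the OT-I and vehicle effects were both called, in opposite directions, with a called difference, and 1490 genes did so against the polyclonal effect. The vehicle and OT-I experiments share no samples, but they differ in antigen, T cell origin and co-culture at once, and these cannot be told apart.

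**Figure D4:**
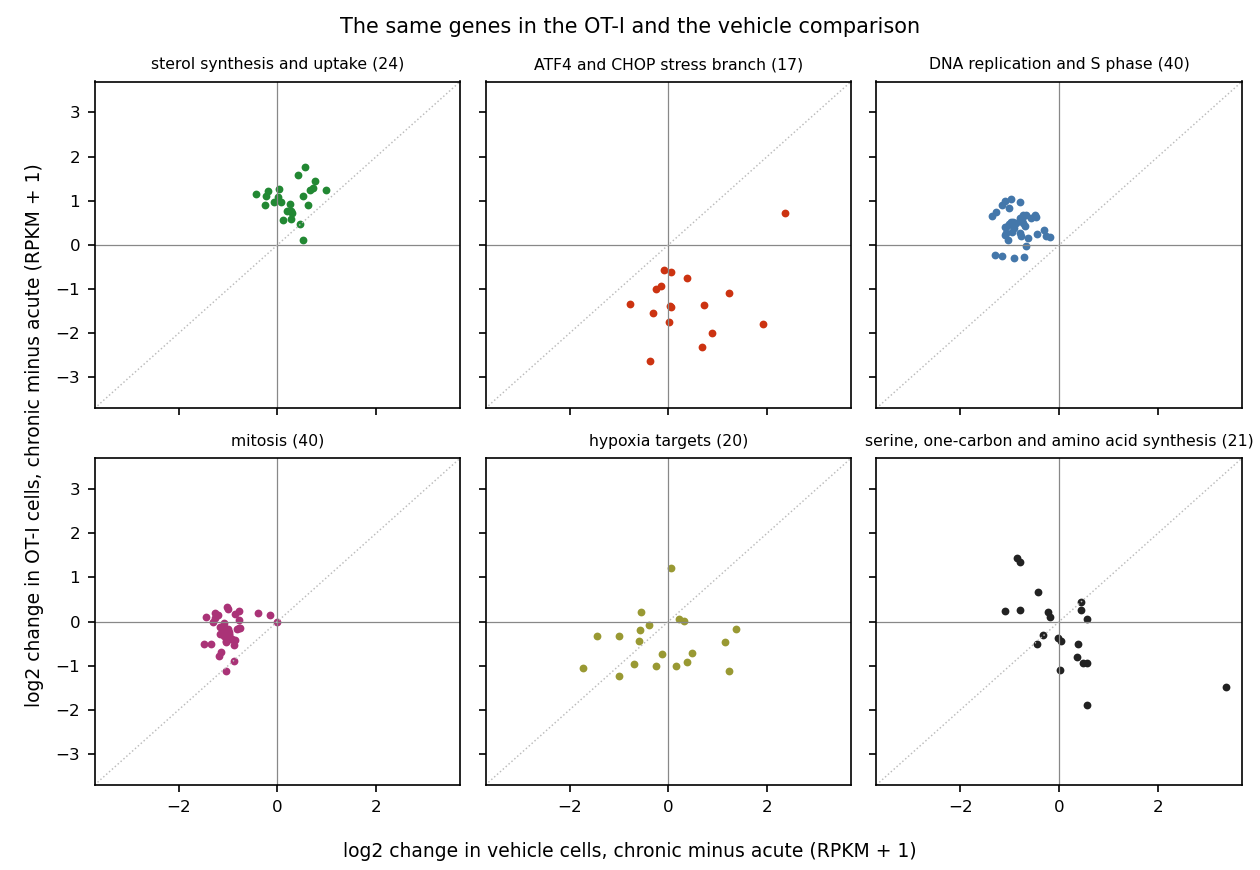
Each point is a gene of the list named above the panel, with the number of its genes in brackets: the log2 change in OT-I cells (vertical) against that in vehicle cells (horizontal), both chronic minus acute on log2(RPKM + 1). The dotted line marks equal effects. DNA replication genes lie to the left of 0 in vehicle cells and mostly above 0 in OT-I cells, and all 17 genes of the ATF4 and CHOP branch lie below the dotted line.

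All 40 replication genes fell in vehicle cells, with a median of -0.89, and the OT-I effect was above the vehicle effect for all 40, against 28.9% of all genes. In vehicle cells 60.6% of all genes were called in either direction, and their split by direction is not reported here. Mitosis genes fell in 38 of 40 cases in vehicle cells, with a median of -1.02, and the OT-I effect lay above for 37. ATF4 and CHOP genes showed the reverse: the OT-I effect was below the vehicle effect for 17 of 17 and below the polyclonal effect for 17 of 17, against 31.7% and 29.5% of all genes. Ddit3 went from 25.9 to 48.6 RPKM in vehicle cells, and the difference of effects in limma was -2.89 (SE 0.11, adjusted p = 2.56e-14). For sterol genes the OT-I effect was above the vehicle effect for 22 of 24 and above the polyclonal effect for 21.

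Effector genes that rose in both experiments differed in part in size. Prf1 rose by a log2 change of 4.89 in OT-I and 4.32 in vehicle cells, a difference of 0.56 (SE 0.11, adjusted p = 1.77e-04), and Ifng by 6.34 and 6.25, whose difference of 0.09 (SE 0.11, adjusted p = 0.519) did not pass the test (limma for each). Pdcd1 rose by 1.64 and 4.53, a difference of -2.89 (SE 0.11, adjusted p = 1.30e-14), and inhibitory receptors as a list had the OT-I effect below the vehicle effect for 17 of 20. Eomes rose in OT-I cells while it fell in polyclonal cells, where its log2 change was -3.79, a difference in limma of 5.43 (SE 0.056, adjusted p = 2.82e-23). CD8 markers fell in those same polyclonal libraries, with a summed level of 359 to 375 RPKM in acute and 29.8 to 32.5 RPKM in chronic ones. CD4 T cell markers rose there, from a summed 99.5 to 108 RPKM in acute to 378 to 403 RPKM in chronic libraries. The part of these markers in this difference was not tested. Interferon-γ induced genes of the list rose in 19 of 26 cases in the OT-I libraries. All 10 co-culture members of the list rose there, while the 10 lymphocyte-level members had 4 higher and 6 lower. In vehicle cells 19 of the 26 fell, where 60.6% of all genes were called in either direction. The difference was called above 0 for 21. In vehicle cells Ifng rose from 4.67 to 430.5 RPKM, while the mean of Cxcl9 stayed under 0.5 RPKM.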

How the data were processed

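The deposited table holds 1 RPKM value per gene and library, made by the authors from their reads. Per the submitters' processing notes, bcl2fastq 2.17, HTSeq, edgeR and genome build mm9 were used, with no roles or order stated. Strand use in counting is not given in the sources used, and reads of genes that overlap cannot be told apart. Whole reads were recovered from the RPKM steps: 100% of values came out whole within 0.001 reads, which gave the depths and the reads for the voom alternative.

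Differences were tested with limma 3.58.1 in R 4.3.3 on log2(RPKM + 1). All 21 libraries (7 groups of 3, of which the N-acetylcysteine group enters no comparison here) shared 1 estimate of the spread. The fit took the 12630 genes at 1 RPKM or more in at least 3 libraries, with Benjamini-Hochberg adjustment over all of them. The difference between the OT-I effect and the vehicle or polyclonal effect was a contrast of the same fit. The fit and the read recovery were tested on simulated data. The members, gene lists and classes were chosen with earlier results of these data known. Named genes are any in lists of at most 30 genes, the 4 largest changes per direction of longer lists, the 12 largest changes per direction in each class, and the 10 most abundant co-culture genes. The largest changes were taken among called genes whose OT-I groups did not overlap. Values of some members are not reported here. A few further genes of the longer lists were named after their values were seen. Promoters came from the RefSeq table of GRCm38.p6 and not from mm9. Alternatives were the pseudocount, filters, rescaling, the samples in the fit, a replicate block, voom, a 2-fold threshold, class limits and leaving out each OT-I library. No counting intervals of single values were computed, and no genome of the authors' build was used here.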

Additional observations from a re-analysis of the deposited data

Results flagged for a closer look

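For these genes the chronic effect in OT-I cells differed from that in tumour-free cells by limma's test of the difference itself, with opposite directions in the 2 experiments. They are examples of the 2029 genes that did so against vehicle cells and the 1490 against polyclonal cells, and were chosen after their values were seen. No explanation was tested, since antigen, T cell origin and co-culture differ at once.

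Lta, a lymphotoxin gene, rose by a log2 change of 1.55 in OT-I cells, with -2.88 in vehicle cells, a difference of 4.43 (SE 0.20, adjusted p = 3.39e-13). Id3, the E protein inhibitor gene, had 0.71 against -4.47, a difference of 5.18 (SE 0.19, adjusted p = 8.35e-15). Nr4a3 went the other way, with -1.19 against 3.96 and a difference of -5.15 (SE 0.096, adjusted p = 8.00e-19). Ctla4 did too, with -1.03 against 1.89 and a difference of -2.92 (SE 0.069, adjusted p = 2.38e-17). The interferon-induced genes Gbp2 and Ifit2, both of the co-culture class, rose in the OT-I libraries and fell in vehicle cells. Gbp2 had 1.77 against -2.26, a difference of 4.03 (SE 0.057, adjusted p = 9.09e-21), and Ifit2 1.60 against -1.31, a difference of 2.90 (SE 0.10, adjusted p = 6.76e-15). The metabolic and replication genes named next also rose in OT-I and fell in vehicle cells. Mcm5 had 0.73 against -1.27, a difference of 2.01 (SE 0.065, adjusted p = 1.72e-15). Shmt1 had 1.43 against -0.85, a difference of 2.28 (SE 0.11, adjusted p = 7.70e-13), and Txn1 1.23 against -0.77, a difference of 2.00 (SE 0.12, adjusted p = 1.24e-11). Atf5, an ATF4 branch factor, fell by contrast, with -1.79 against 1.92 and a difference of -3.70 (SE 0.13, adjusted p = 4.43e-15). Eomes had 1.64 in OT-I and -3.79 in polyclonal cells, a difference of 5.43 (SE 0.056, adjusted p = 2.82e-23). CD8 markers fell and CD4 T cell markers rose with chronic stimulation in the polyclonal libraries, and their part was not tested.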

How the results depend on the processing

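Counts of called genes stayed within 1.5 times under the other pseudocount, filters, rescaling, OT-I libraries alone, voom (3206 higher and 5116 lower) and the fit without the 3 libraries with raised low genes, which was added after seeing the data (3248 higher and 5008 lower), with the exceptions given here. Rescaling to the median of lymphocyte-level genes gave 3296 higher and 3782 lower, against 3442 and 3470 with the median of all genes tested. With a threshold of at least 2-fold, 719 genes were called (368 higher, 351 lower), of which 495 were lymphocyte-level genes (283 and 212) and 142 co-culture genes (54 and 88). With a pseudocount of 0.1, 189 co-culture genes were called (70 higher, 119 lower); the cause was not tested. A co-culture limit of 2-fold gave 820 called (219 and 601) and one of 8-fold 245 (77 and 168), over larger and smaller classes by construction. Leaving out each OT-I library in turn gave 6602 to 7122 called genes (2522 to 2841 higher, 4000 to 4294 lower), 5853 to 6377 lymphocyte-level (2323 to 2614, 3459 to 3763) and 369 to 394 co-culture (109 to 124, 246 to 282). The differences from the vehicle effect ranged over 6759 to 7182 and those from the polyclonal effect over 6322 to 6982. Deviations from the group means correlated between same-numbered OT-I libraries with r of 0.072, -0.24 and -0.14. Between libraries of unlike number r ran from -0.26 to 0.38. Deviations cancel within a group of 3, so these values depend on each other and cannot show whether the numbers pair the libraries. The replicate block gave 6349 called genes, 2374 higher and 3975 lower, lowered the count of higher mitosis genes from 7 to 2 and that of higher mitochondrial biogenesis genes from 3 to 1, and ended the calls of Cd8a, Fasl, Klrk1 and Pecam1. Genes whose log2 change turned sign had all missed the test with every library in the fit. Leaving out each OT-I library gave log2 changes of Batf -0.051 to 0.14, Ccr7 -0.030 to 0.11, H2-K1 -0.039 to 0.18, Hspa5 -0.022 to 0.051, Il2rg -0.0074 to 0.069, Lck -0.056 to 0.097, Pgk1 -0.054 to 0.28, Srgn -0.055 to 0.13, Usp18 -0.084 to 0.013 and Zap70 -0.12 to 0.043. The lowest of these came without OT-I acute library 3, and for the first 8 genes the same values held without the 3 libraries with raised low genes. After rescaling to a common median the log2 changes were Gapdh 0.046, Ifit1 0.034, Ifit3 0.011, Slc2a1 0.013, Usp18 0.049 and Zap70 0.060, and to that of lymphocyte-level genes Gapdh 0.026, Ifit1 0.011, Usp18 0.026 and Zap70 0.037.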

Other observations

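Several genes not described so far changed by more than 2-fold. Il24, a cytokine of the IL-10 family, rose from 6.09 ± 1.36 to 37.5 ± 0.881 RPKM (log2 change 2.46, SE 0.27), and Serpinb6b, a serine protease inhibitor gene, from 40.6 ± 1.79 to 187 ± 4.33 RPKM (log2 change 2.17, SE 0.052); they belong to the cytokine and granule lists. Outside the lists, Ly6c1 rose from 8.64 ± 1.18 to 169.6 ± 11.7 RPKM (log2 change 4.15, SE 0.089), a value that is uncertain because its neighbour Ly6c2 is a near-identical copy. Snhg5, a host gene of small nucleolar RNAs, fell from 133 ± 24.1 to 27.9 ± 2.56 RPKM (log2 change -2.20, SE 0.094). The related host genes Snhg1 and Snhg12, of the intermediate class, fell as well, Snhg1 from 589 to 153 RPKM and Snhg12 from 151 to 40.02 RPKM (log2 changes -1.93 and -1.88). In vehicle cells the log2 changes of Snhg5, Snhg1 and Snhg12 were -0.37, -0.16 and 0.44.

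Other intermediate genes rose. Ahr, the aryl hydrocarbon receptor gene, was at 2.28, 2.28 and 3.01 RPKM in the acute libraries and 10.5, 10.2 and 9.91 RPKM in the chronic libraries, and the fatty acid receptor gene Cd36 at 0.812, 1.08 and 1.26 RPKM in the acute libraries and 6.997, 6.35 and 7.02 RPKM in the chronic libraries. Neither overlapped between the groups, as held for 67.8% of all members (log2 change 1.67, SE 0.13 and log2 change 1.93, SE 0.15). Of the co-culture genes, Slamf8 rose from 0.881 ± 0.466 to 21.1 ± 0.371 RPKM (log2 change 3.58, SE 0.29) and the interferon-induced Ifi205 from 0.522 ± 0.0413 to 14.98 ± 0.438 RPKM (log2 change 3.39, SE 0.23). Cyb5r1, a cytochrome b5 reductase gene, fell from 152 ± 3.19 to 23.3 ± 0.214 RPKM (log2 change -2.65, SE 0.082).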
